A study of Equus caballus with 32 samples.

Results

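A set of 9 complement genes was looked for by gene symbol in the expression table of horse tracheal wash (TW) derived cells, and 6 of its 21357 genes carried a symbol sought, namely C2, CFB, CFP, C3AR1, C5AR1 and SERPING1. The rows for C3, CD55 and CFD had no symbol and were found only through the gene descriptions of the table, so they are given beside the 6 but are not counted with them. A further row described as complement C3-like was treated in the same way.

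TW cells came from 16 male Thoroughbred racehorses of similar age and of 1 yard and 1 trainer, each sampled at rest between racing seasons (T0) and again in intense race training (T1), which gave 32 libraries. At T1, 3 horses (2, 3 and 10) had a high share of neutrophils by cytology and formed the High_N group, against 13 others. Exercise-induced pulmonary haemorrhage (EIPH), bleeding into the airways shown by iron-laden macrophages, affected 11 horses, and 5 (4, 9, 10, 11 and 16) were unaffected. Of the High_N horses, 2 were affected by EIPH and 1 was not. The labels name no genotype and no drug. By the published description the horses were mostly at pasture at T0 and stabled in training. Each horse was also sampled at rest first, so training, housing and other changes between its sampling times cannot be told apart.

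Complement is a cascade of plasma and tissue proteins that coats microbes and debris, attracts leucocytes and can lyse cells. All of its routes converge on cleavage of C3, and the alternative pathway amplifies that cleavage through factor B, factor D and properdin. The liver makes most plasma complement, while airway epithelial cells and macrophages also make components locally and myeloid cells carry the receptors for the fragments released.

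The values are log2 expression values, and because no source states that they are per length they are compared between libraries and not between genes. Each washing holds a mixture of cells, and in such bulk samples fewer cells of a type and less RNA per cell cannot be told apart. Macrophage markers had a mean log2 value of 12.23 to 14.003 at T0 and 12.7 to 13.8 at T1 (16 rows). The mean of 23 ciliated epithelium markers lay between 8.004 and 11.9 in T0 libraries and between 7.94 and 11.9 in T1 libraries. For 10 neutrophil markers the T0 libraries spanned 8.37 to 9.68, and those of T1 8.80 to 11.1. No marker of these 3 lists was at 0.

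CFB, ENSECAG00000011854, encodes the protease subunit of the alternative pathway C3 convertase. Its log2 values ran from 10.22 through a median of 12.48 to 13.78 at T0, and from 10.19 through 12.82 to 14.69 at T1. The washings thus spread widely at both times and the time points overlapped almost entirely. The T1 minus T0 difference was 0.29 (SE 0.32, limma adjusted p = 0.5869), and 10 of 16 horses were higher at T1. Horse 2 had the largest increase (2.80) and horse 3 the largest decrease (-2.52). The difference was 0.12 without horse 2, 0.48 without horse 3 and 0.47 without horse 5.

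C2, ENSECAG00000004709, is the counterpart of factor B in the classical and lectin pathways. Its log2 values ran from 11.98 through 12.58 to 13.16 at T0 and from 11.87 through 12.66 to 13.01 at T1. The spread was narrow and the same range was covered at both times. The difference was 0.03 (SE 0.12, limma adjusted p = 0.8815), with a 95% interval of -0.21 to 0.28 and 9 of 16 horses higher at T1. Leaving out 1 horse at a time gave -0.015 (without horse 16) to 0.12 (without horse 14).

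CFP, ENSECAG00000017644, encodes properdin, which stabilises the alternative pathway convertase and is made by myeloid cells. At T0 its log2 values lay between 13.10 and 14.12 with a median of 13.75. At T1 they lay between 13.0045 and 15.83 with a median of 13.96. The standard deviation was 0.29 at T0 and 0.76 at T1, and the libraries of horses 1 and 15 lay above all others at T1, at 15.83 and 15.63. Horses 1, 15 and 3 had the largest increases (2.34, 1.92 and 1.70). Their T1 libraries also had the largest sums of unlogged values over genes, at 39040000, 35340000 and 36030000, against at most 33060000 in any other library. Whether the high CFP values reflect this feature of the libraries was not tested. The difference between times was 0.44 (SE 0.20, unadjusted p = 0.04199, limma adjusted p = 0.1587), and 12 of 16 horses were higher at T1. This was the smallest unadjusted p of the 6 genes in this comparison and did not pass the threshold. The median of the 16 differences was 0.19, and leaving out 1 horse at a time gave a CFP difference of 0.31 to 0.52.

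The 2 anaphylatoxin receptors bind the small fragments C3a and C5a. C3AR1, ENSECAG00000003106, had log2 values of 7.55 to 9.91 at T0 (median 8.55) and 7.18 to 9.86 at T1 (median 8.73). C5AR1, ENSECAG00000006153, had log2 values of 10.06 to 12.83 at T0 (median 11.28) and 10.22 to 12.06 at T1 (median 11.39). Neither receptor separated the time points. The differences were 0.18 for C3AR1 (SE 0.15, limma adjusted p = 0.4682) and -0.09 for C5AR1 (SE 0.18, limma adjusted p = 0.7779). Omitting single horses put C5AR1 at -0.23 (horse 3 omitted) to -0.028 (horse 15 omitted), and C3AR1 at up to 0.28 (horse 2 omitted).

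SERPING1, ENSECAG00000010963, encodes the C1 inhibitor, which blocks the proteases that start the classical and lectin pathways. Its log2 values ran from 6.96 through 8.37 to 10.05 at T0 and from 6.68 through 8.70 to 10.71 at T1. The highest T1 library was that of horse 2, in which the value was 3.43 above its own T0 library. The difference was 0.41 (SE 0.27, limma adjusted p = 0.3253), with 11 of 16 horses higher at T1. It ranged from 0.21 (without horse 2) to 0.56 when 1 horse at a time was left out.

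C3, ENSECAG00000000339, is the central component of the cascade. Its log2 values ran from 7.32 through 9.67 to 11.48 at T0 and from 7.41 through 9.91 to 12.23 at T1. The C3-like row, ENSECAG00000019352, spanned 8.98 to 13.02 in T0 libraries, and 9.34 to 14.50 in those of T1. Reads of 2 such similar genes can be split between them by transcript quantification, so their separate levels are uncertain. The differences between times were 0.46 for C3 (SE 0.40, limma adjusted p = 0.4708) and 0.52 for C3-like (SE 0.39, limma adjusted p = 0.4008), and for each 12 of 16 horses were higher at T1. Leaving out 1 horse at a time gave 0.24 (without horse 2) to 0.69 for C3 and 0.30 (without horse 2) to 0.74 for C3-like. CD55, ENSECAG00000016667, a membrane protein that speeds the decay of C3 convertases, differed by -0.19 (SE 0.10, limma adjusted p = 0.2229). Its difference ranged from -0.22 to -0.12 (without horse 14) when 1 horse at a time was left out. CFD, ENSECAG00000036123, encodes the protease that cleaves factor B, and its log2 values stayed between -0.17 and 0.55, under the minimum for testing.

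**Figure D1:**
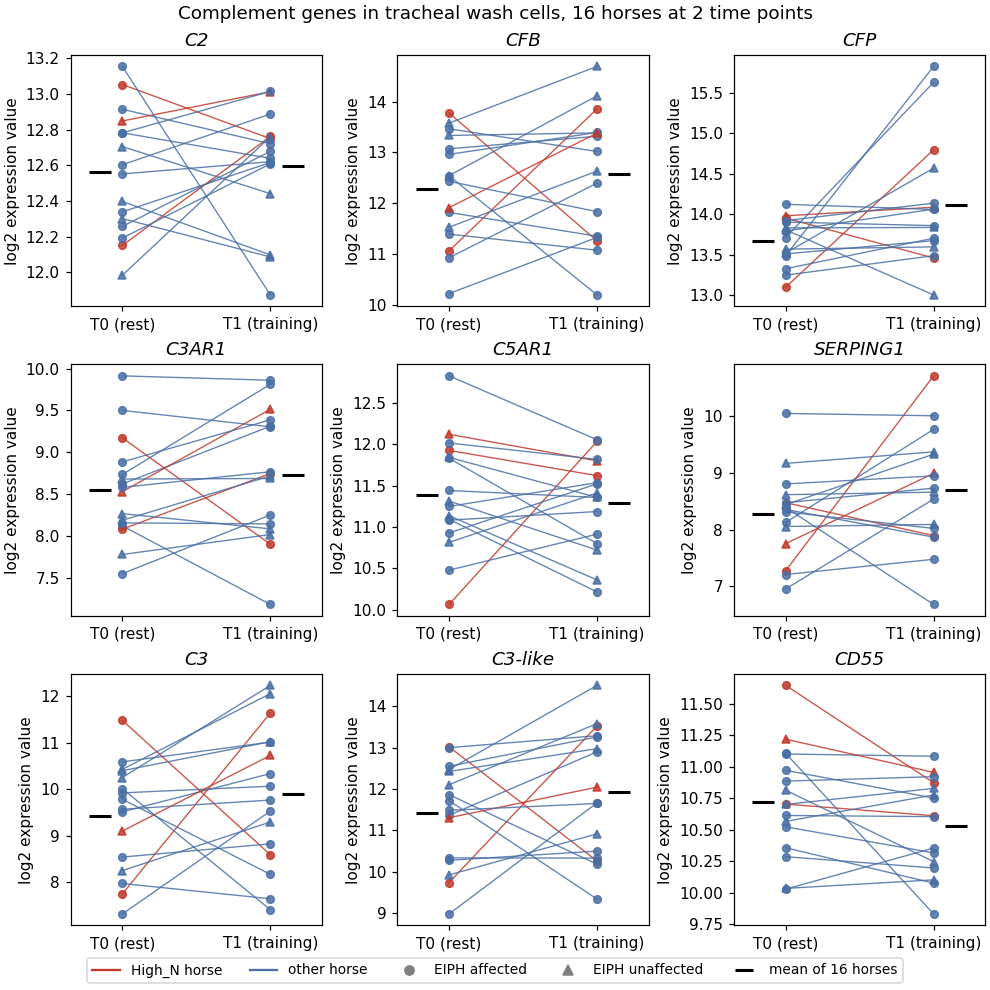
Log2 expression values of 9 complement genes at T0 and T1, 1 panel a gene and 1 line a horse; colour gives the High_N group, marker shape the EIPH group, and black dashes the mean of 16 horses. Lines cross in every panel, and for CFP the T1 values spread up to 15.83 from a T0 range of 13.10 to 14.12.

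In total 0 of 6 genes passed the training test at an adjusted p under 0.05, where 6.35% of all 14643 genes tested did (930 genes, of which 569 were higher and 361 lower at T1), and 4169 genes had an unadjusted p under 0.05. The median difference was 0.24 over the 6 genes and -0.02 over all genes. None of the 6 passed under any of the other settings run for this comparison.

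The High_N comparison asks whether neutrophil-rich washings differed from the rest. C5AR1, a receptor of neutrophils and macrophages, was at 11.62, 12.04 and 11.80 in High_N horses 2, 3 and 10 at T1, against 10.22 to 12.06 with a median of 11.36 in the other 13. The 3 values lay in the upper part of the range of the others without leaving it. The difference was 0.65 (SE 0.31, unadjusted p = 0.05141, limma adjusted p = 0.9997), with a 95% interval of -0.0044 to 1.29.

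SERPING1 was at 10.71, 7.89 and 8.99 in the same 3 horses at T1 and between 6.68 and 10.01 in the others. CFB was at 13.86, 11.25 and 13.38, against 10.19 to 14.69. Horse 2 was thus high and horse 3 low for both genes. The differences were 0.62 for SERPING1 (SE 0.60) and 0.31 for CFB (SE 0.75), both with a limma adjusted p of 0.9997. Without horse 2 they were -0.13 and -0.20, and without horse 3 they were 1.27 and 1.10.

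At T1, 0 of 6 genes passed in the High_N comparison by limma, where 0.164% of all genes did (24 genes, all higher in High_N) and 406 had an unadjusted p under 0.05. Between the same horses at T0, 0 of 6 passed, where 0% of all genes did and 493 had an unadjusted p under 0.05. For the difference of the training change between High_N and other horses, 0 of 6 passed, where 0% of all genes did and 172 had an unadjusted p under 0.05. The neutrophil marker mean at T1 was 10.58 in High_N and 9.45 in other horses, and 2 of 10 of its genes passed.

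The 3 High_N horses differed in how CFB, C3 and the ciliated markers changed. In horse 2 the ciliated marker mean was 8.73 at T0 and 10.58 at T1, and C3 was 3.88 higher and CFB 2.80 higher at T1. In horse 3 the ciliated mean was 11.63 at T0 and 8.52 at T1, and C3 differed by -2.89 and CFB by -2.52. In horse 10 the ciliated mean was 9.87 at T0 and 9.72 at T1, and C3 was 1.63 higher and CFB 1.47 higher. Genes and ciliated markers thus differed the same way in horses 2 and 3 but not in horse 10. The secretory and squamous epithelium marker means both differed in the direction of the genes in all 3 horses. From T0 to T1 the secretory mean went from 7.06 to 11.54 in horse 2, from 10.165 to 8.07 in horse 3 and from 8.49 to 10.30 in horse 10. The squamous mean went from 8.53 to 11.95, from 10.26 to 8.97 and from 9.48 to 9.91 in the same horses.

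Among the genes sought, the EIPH comparison at T1 gave the largest differences for CFB and C3. CFB was at 14.11, 13.38, 13.38, 12.63 and 14.69 in unaffected horses 4, 9, 10, 11 and 16, and ran from 10.19 through 11.83 to 13.86 in the 11 affected horses. All unaffected values lay above the median of the affected group, and the groups overlapped. The difference, affected minus unaffected, was -1.55 (SE 0.52, unadjusted p = 0.007573, limma adjusted p = 0.1714).

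C3 was at 12.23, 11.02, 10.72, 9.29 and 12.05 in the same 5 unaffected horses, and ran from 7.41 through 9.53 to 11.63 in affected ones. The difference was -1.70 (SE 0.63, unadjusted p = 0.01396, limma adjusted p = 0.1785). C3-like differed by -1.27 (SE 0.70, limma adjusted p = 0.3477), and by -0.84 without horse 16. None of these differences passed the threshold.

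Epithelial markers moved with these values, and those of ciliated cells were not alone. The ciliated mean was 9.59 in affected horses (7.94 to 11.2) and 11.06 in unaffected horses (9.72 to 11.9) at T1, and all 23 ciliated genes had a lower mean in affected horses, with a median difference of -1.50. All 4 secretory markers tested (median -0.77) and all 4 squamous markers (median -1.03) also had lower means in affected horses. The macrophage marker mean was 13.51 in affected and 13.02 in unaffected horses. With the ciliated, neutrophil and macrophage means as covariates, the EIPH difference was -0.31 for CFB, -0.36 for C3 and 0.57 for C3-like, the last with its sign turned. In that fit 0 of all 14630 genes passed, and its ciliated and macrophage covariates were opposed over the 16 libraries (Pearson's r = -0.861). Why the differences changed with the covariates was not tested.

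The other genes had smaller differences between EIPH groups at T1, at 0.43 for CFP (SE 0.37), 0.24 for C5AR1 (SE 0.28), 0.18 for C3AR1 (SE 0.39), 0.17 for C2 (SE 0.18) and -0.28 for SERPING1 (SE 0.51). With the marker covariates all 5 values had the other sign, each with a limma adjusted p of 0.9999. Leaving out 1 horse at a time gave 0.22 (without horse 9) to 0.61 (without horse 16) for CFP, 0.046 (without horse 4) to 0.41 (without horse 10) for C5AR1 and 0.037 (without horse 9) to 0.41 (without horse 10) for C3AR1. The same gave 0.074 (without horse 9) to 0.31 (without horse 10) for C2 and -0.49 (without horse 2) to -0.092 (without horse 5) for SERPING1. Counting CFB, 0 of 6 genes passed by limma, where 0% of all genes did and 2680 had an unadjusted p under 0.05. At T0, 0 of 6 passed, where 0% of all genes did and 172 had an unadjusted p under 0.05. Mean values at T0 were 12.15 in later affected and 12.58 in unaffected horses for CFB, and 9.31 and 9.68 for C3. All 23 ciliated markers had a lower mean in the later affected horses at T0, with a median difference of -0.76. For the difference of the training change between affected and unaffected horses, 0 of 6 passed, where 0% of all genes did and 218 had an unadjusted p under 0.05. Shifting all libraries to 1 common median moved the median EIPH difference over all genes at T1 from 0.02 to 0.13.

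**Figure D2:**
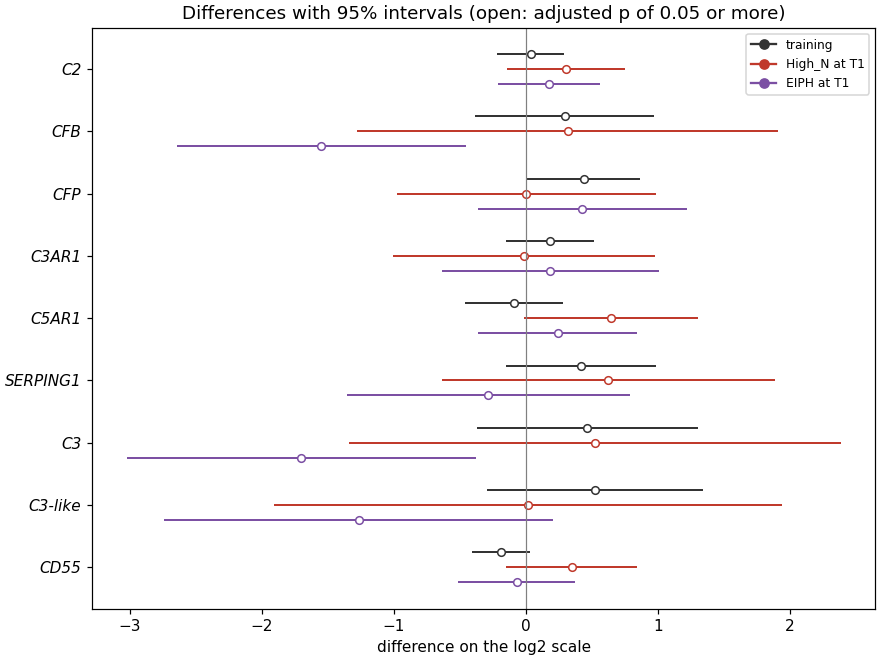
Difference of each complement gene on the log2 scale (points) with its 95% interval (lines) for training (T1 minus T0), High_N (minus other horses) and EIPH (affected minus unaffected) at T1. All points are open, since no adjusted p was under 0.05, and the EIPH intervals of CFB (estimate -1.55) and C3 (-1.70) do not reach 0.

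Against the ciliated markers of the washing the 6 genes fell into 2 directions, as genes in general did. For each gene a slope was fitted on the mean of 23 ciliated markers, in log2 units of the gene per log2 unit of that mean, over the 16 libraries of each time. At T0 all 6 genes passed, where 57.1% of all genes did (4500 rising and 3865 falling with the markers). CFB and SERPING1 rose with ciliated markers, and C2, CFP, C3AR1 and C5AR1 fell.

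CFB had the steepest slope of the 6, at 0.80 (SE 0.06, limma adjusted p = 2.296e-09) at T0 and 0.95 (SE 0.11, limma adjusted p = 1.857e-06) at T1. C3 had slopes of 0.79 at T0 (SE 0.11, limma adjusted p = 1.134e-05) and 1.01 at T1 (SE 0.17, limma adjusted p = 0.0001166). C3-like had 0.79 at T0 and 1.09 at T1, and both passed.

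SERPING1 had a slope of 0.35 at T0 (SE 0.12, limma adjusted p = 0.01725) and 0.53 at T1 (SE 0.16, limma adjusted p = 0.01486). Its T0 call was lost without horse 15 (slope 0.28) and with all libraries shifted to 1 median (0.28, adjusted p = 0.0602), and its T1 call without horse 5 (slope 0.43).

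The receptors, C2 and CFP sloped the other way at T0. C5AR1 had a slope of -0.41 (SE 0.09, limma adjusted p = 0.0006532), C3AR1 of -0.37 (SE 0.08, limma adjusted p = 0.0005499), C2 of -0.25 (SE 0.03, limma adjusted p = 2.073e-06) and CFP of -0.15 (SE 0.05, limma adjusted p = 0.007478). At T1 their slopes were -0.23, -0.31, -0.10 and -0.09, and none passed. At T1, 2 of 6 genes passed (CFB and SERPING1), where 27.8% of all genes did (3015 rising and 1049 falling). The difference between the T0 and T1 slopes was not tested.

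**Figure D3:**
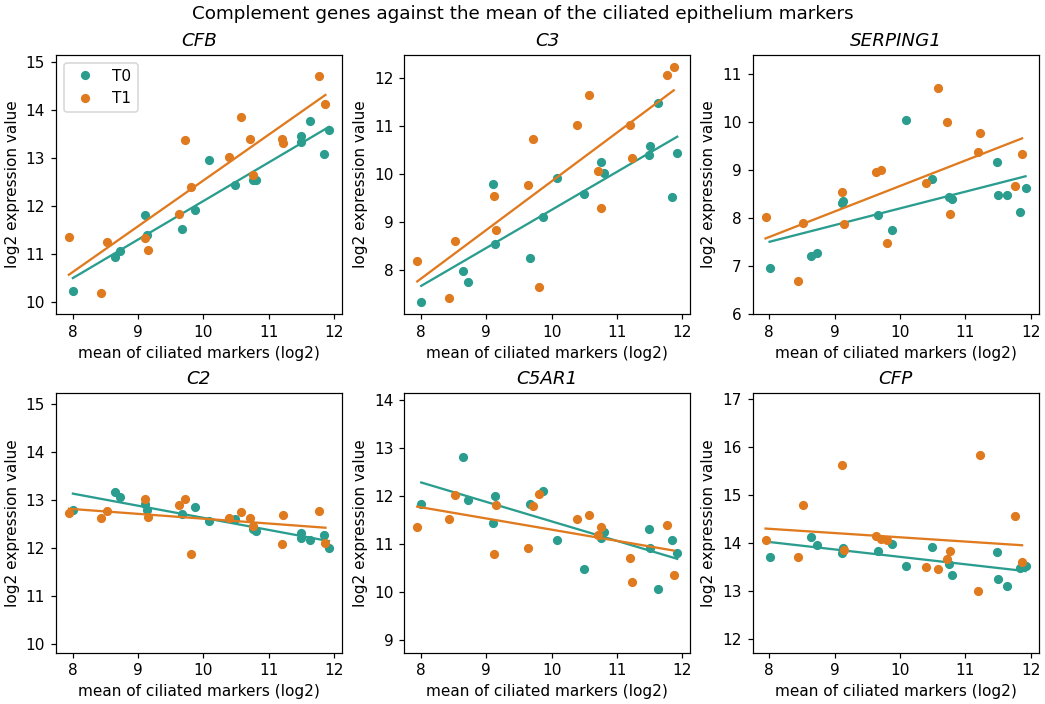
Log2 expression of 6 complement genes (vertical axis, the same span in each panel) against the mean of the ciliated markers (horizontal axis), 1 point a library, with least-squares lines for T0 and T1. CFB and C3 climb along the axis, with fitted slopes of 0.80 and 0.79 at T0, and the high CFP points at T1 (15.83 and 15.63) lie off the line.

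Slopes on the macrophage marker mean ran opposite. At T0, 5 of 6 genes passed, where 58.9% of all genes did. C5AR1 (1.20, SE 0.19), C3AR1 (0.89, SE 0.22), C2 (0.65, SE 0.08) and CFP (0.49, SE 0.10) rose with macrophage markers and CFB fell (-1.93, SE 0.25). At T1 only CFB passed of the 6 (-3.19, SE 0.50), where 26.6% of all genes did. The ciliated and macrophage means were themselves opposed, with Pearson's r of -0.858 at T0 and -0.861 at T1 over 16 libraries each, so the 2 slopes are not separate evidence.

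On the neutrophil marker mean 0 of 6 genes passed at T0, where 0.13% of all genes did and 696 had an unadjusted p under 0.05 by limma. At T1 again 0 of 6 passed, where 0.13% of all genes did and 1087 had an unadjusted p under 0.05. SERPING1 had the largest of these T1 slopes, at 0.78 (SE 0.34, limma adjusted p = 0.6567).

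Across the 32 libraries, which hold 2 libraries a horse and share their cell mixture, CFB followed C3 (Pearson's r = 0.899), C3-like (0.913) and SERPING1 (0.73). C3AR1 and C5AR1 had r = 0.521. C2 and CFB, neighbouring genes in mammalian genomes, had r = -0.508. The genes most like CFB were CXCL17 (0.967), an airway mucosal chemokine, PIGR (0.967), which carries immunoglobulin A across epithelium, and CDH1 (0.966), the epithelial adhesion protein E-cadherin.

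The genes most like SERPING1 were SLCO2A1 (0.857), a prostaglandin transporter, DUOX2 (0.852), an epithelial oxidase, and PLAT (0.841), tissue plasminogen activator. C5AR1 was most like RTN3 (0.822), ALDH2 (0.821) and MSRA (0.815), and C3AR1 most like RAP1B (0.854), ADPGK (0.847) and WTAP (0.825). C2 was most like SEC24C (0.868), PCSK7 (0.861) and IL17RA (0.861). CFP was most like GPS1 (0.969), TOM1 (0.968) and PCYT2 (0.963). For these r was lower over the T0 libraries alone (0.883, 0.868 and 0.862) than over the T1 libraries alone (0.976, 0.978 and 0.972).

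Among 40 other complement rows of the table, 28 could be tested, and 0 passed in the training, High_N or EIPH comparisons or their interactions, where the share of all genes was 6.35% for training, 0.164% for High_N at T1 and 0% for the rest. Against ciliated markers at T0, 11 rose and 11 fell, where 57.1% of all genes passed, and at T1 10 rose and 9 fell, where 27.8% passed. Those that rose at T0 included C6 of the lytic complex (slope 1.07), CLU (0.87) and CFI (0.75), which restrain the cascade, C4A (0.60), and the C1 proteases C1R (0.35) and C1S (0.26). Those that fell included C1QB (-0.40) and C1QC (-0.36), chains of the recognition protein C1q, the ficolin FCN1 (-0.42), the second C5a receptor C5AR2 (-0.40), and the integrin chains ITGAM (-0.42), ITGAX (-0.24) and ITGB2 (-0.37) of complement receptors. Of 6 regulator rows tested, 5 rose and 1 fell at T0, the last being C4BPA (-0.41, and -0.29 at T1, both passing). Those that rose were CFI, CLU and rows that all carry the description of CD46 (0.27, 0.91 and 0.35), so they are not 5 separate genes. The regulator CD55, not counted among these rows, fell at T0 (-0.20, SE 0.07, limma adjusted p = 0.02138). Its call was lost without horse 2 or horse 16. In the EIPH comparison at T1, C6 differed by -1.74 (SE 0.49), C1QB by 0.73 (SE 0.22) and C1QC by 0.92 (SE 0.28), each with a limma adjusted p of 0.1714.

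**Figure D4:**
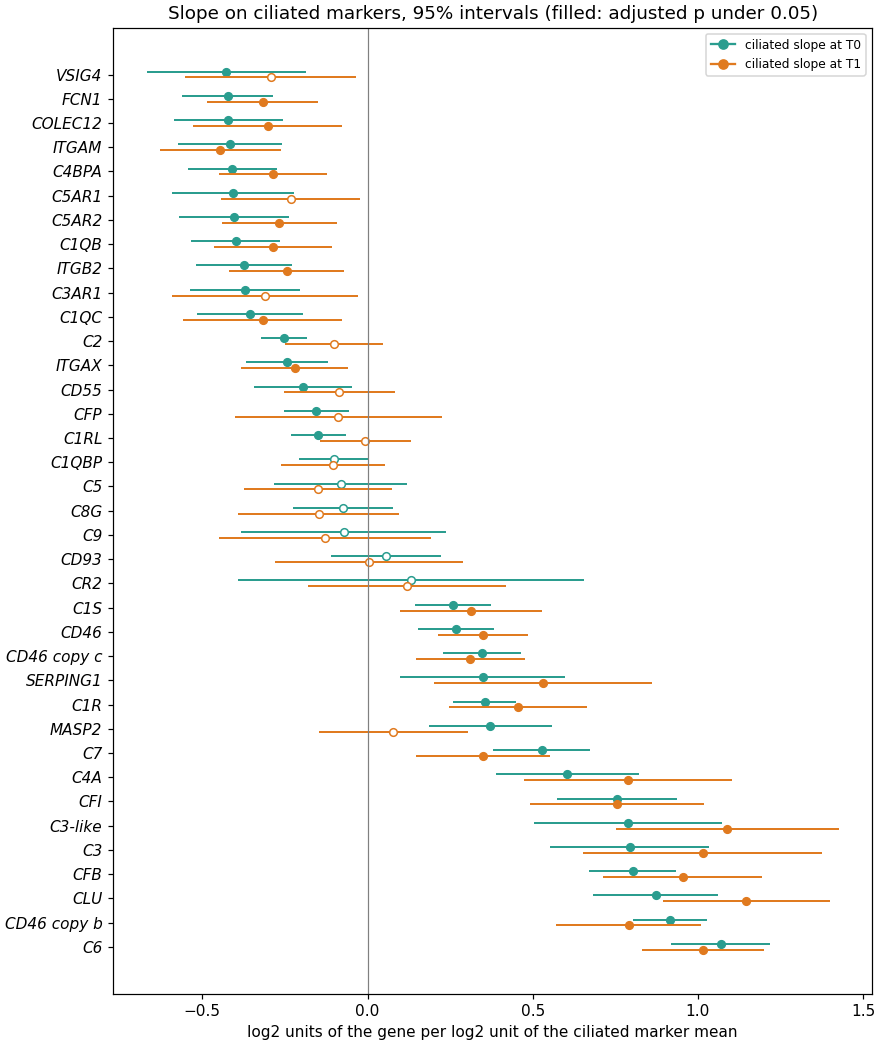
Slope of each complement gene on the mean of the ciliated markers (points, log2 units per log2 unit) with 95% intervals (lines) at T0 and T1, in order of the T0 slope; filled points had an adjusted p under 0.05. C3AR1, C5AR1, C5AR2, the integrin chains, C1QB and C1QC lie on the left, the receptors CR2 and CD93 near the middle with open points, and C6 (1.07 at T0), CLU, CFB and C3 on the right.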

How the data were processed

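RNA from TW cells of 16 horses at 2 times was sequenced (32 libraries). Per the submitters' processing notes, cutadapt, FastQC, MultiQC and kallisto 0.46.0.1 with EquCab3.0 were used. The deposited table carries a title of raw counts, although the entries are fractional and some are negative. They are log2 values made by the authors, by a step not given in the sources used here. Sequencing depth cannot be read from them (library medians 8.79 to 9.149), and 1899 genes were at 0 throughout.

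Differences were tested with limma 3.58.1 in R 4.3.3 (mean-variance trend) on genes whose log2 values averaged at least 3, with Benjamini-Hochberg adjustment over all genes tested and a threshold of 0.05. Whether these values understate the change of low genes was not tested. Figures were drawn with matplotlib 3.10.9. Each horse was a replicate block in the training test, since both libraries come from 1 animal. Deviations of the 2 libraries of a horse had r of -0.508 to 0.785 (median 0.345), over 0.1 in 12 horses. High_N and EIPH membership came from the published description by horse number. The genes, marker lists and tests were chosen with earlier results of these data known. Named were the genes sought, other complement genes and the 3 genes most alike by Pearson's r among genes with a mean of at least 5. Alternatives were other filters, centring, moderation, marker covariates, no block, and leaving out horses. Single-gene values were repeated under them for training, High_N and EIPH at T1 and for slopes that passed. The tests were checked on simulated data. A further complement gene is not reported here. No sequences or coordinates were used.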

Additional observations from a re-analysis of the deposited data

How the results depend on the processing

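Without the pairing by replicate block, 0 of 6 genes passed for training, as with it, while the count over all genes was 15 rather than 930. That count was 454 with no filter, 519 with libraries shifted to 1 median, 25 without the High_N horses and 0 with marker covariates. For High_N at T1 it was 13 with no filter and 0 with covariates rather than 24, and for EIPH at T1 it was 2 with no filter rather than 0. The causes were not tested. With libraries shifted to 1 median, 5 of 6 genes rather than 2 passed on the ciliated slope at T1 and 3 rather than 1 on the macrophage slope at T1, while the counts over all 14630 genes went from 4064 to 5692 and from 3893 to 5627, and the SERPING1 ciliated slope at T0 was 0.28 and no longer passed. Leaving out 1 horse gave 1 to 2 on the macrophage slope at T1 (2 without horse 1 or 16).

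None of the complement genes repeated passed in training, High_N at T1 or EIPH at T1 under any setting, but 43 of 621 repeated values changed sign. With marker covariates the training value of C2 was -0.061, the High_N values were -0.0021 for C2, -0.77 for CFP and -0.78 for C3-like, and the EIPH values were -0.12 for C2, -0.026 for CFP, -0.31 for C3AR1, -0.26 for C5AR1, 0.64 for SERPING1 and 0.57 for C3-like. With libraries shifted to 1 median, C3AR1 was 0.023 for High_N and CD55 was 0.046 for EIPH. Leaving out 1 horse, C2 ranged from -0.015 to 0.12 for training and CD55 from -0.19 to 0.022 for EIPH. For High_N the ranges were -0.20 to 1.10 for CFB, -0.13 to 1.27 for SERPING1, -0.14 to 1.38 for C3, -0.78 to 0.85 for C3-like, -0.41 to 0.40 for C3AR1 and -0.34 to 0.33 for CFP. Of 432 repeated slopes, 9 no longer passed and none changed sign. Only 3 High_N and 5 unaffected horses limit these comparisons.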
